A study of Mus musculus with 12 samples.

Results

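Open chromatin inside gene bodies but away from transcript starts was examined in fibroblasts of mouse lower abdominal muscle. The regions were chosen by measured values. Peaks with a q value of at most 0.05 were taken from 5 of the 12 ATAC-seq libraries (vehicle 1, vehicle 3, E2 1, E2 plus fulvestrant 1 and fulvestrant 1) and merged. A merged region was kept if it was called in at least 4 of these 5 libraries, was not overlapped by a deposited peak in all 12 libraries, lay with its midpoint over 3000 bp from every GENCODE M21 transcript start and fell inside a gene body. This left 1382 of 63686 merged candidate regions on chromosomes 1 to 19 and X, hereafter called intragenic distal regions. The same steps gave 1517 reproducible intergenic distal regions and 7798 reproducible promoter regions, which were used for comparison.

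The cells were primary fibroblasts that the study named hernia-associated fibroblasts, grown from this muscle in the Arom hum strain, an FVB/N line that carries the human aromatase gene on a bacterial artificial chromosome with its own promoters. All cultures came from this genotype, were passaged once and were starved of serum overnight. Each of the 4 groups held 3 libraries: vehicle (ethanol and DMSO), 10 nM estradiol (E2), 10 nM E2 plus 100 nM fulvestrant, and 100 nM fulvestrant, with fulvestrant or DMSO given 3 h before E2 or ethanol and harvest 1 h later. No group was free of the transgene, and no source used here says whether libraries of a group came from separate mice, so p-values measure the spread between these libraries only.

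ATAC-seq cuts DNA with a transposase where it is free of nucleosomes. Enhancers are stretches of such open DNA that bind transcription factors and raise transcription of a gene that may lie far away, and many of them lie in introns. In fibroblasts, AP-1 (dimers of FOS and JUN proteins) and TEAD (the DNA-binding partner of YAP and TAZ) are known to occupy many enhancers, while estrogen receptor alpha binds a palindromic estrogen response element (ERE) or tethers to other factors such as AP-1. Fulvestrant is a pure antagonist that binds the receptor and leads to its degradation.

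Before any result, the libraries fell into sets that the treatments did not explain. The 12 peak lists held 30062 to 110724 peaks. The share of peaks with a q value of at most 0.05 was 17.9% to 46.4% in the 5 libraries that chose the regions and 7.35% to 24.7% in the 7 others. The study states that the mice were male, yet the 4 libraries numbered 1 held 22 to 36 peaks on the Y chromosome, against 854 to 1148 in the 8 libraries numbered 2 or 3. The marker promoters were mostly those of fibroblasts: a peak with a q value of at most 0.05 lay within 3000 bp of a start of 7 of 10 fibroblast markers in at least 4 of the 5 choosing libraries, among them Pdgfra, Pdgfrb, Col1a2, Vim and Fn1, and of 0 of 7 myogenic, 0 of 5 endothelial, 0 of 5 immune and 0 of 5 epithelial markers. Below that cut, Thy1 had such a peak in 3 of the 5, Col3a1 in 2 and Lum in 1. Among markers of other cell types, Ckm and Vwf had one in 2 each, and Myog, Tek, Csf1r and Epcam in 1 each. In the 7 other libraries such a peak, in any library, was seen at 2 of the 10 fibroblast, 1 of the 7 myogenic, 1 of the 5 endothelial, 1 of the 5 immune and 0 of the 5 epithelial markers, so these libraries did not show the labelled cell type at their markers. A share of cells without an open region and a weaker signal in each cell cannot be told apart in bulk libraries.

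Windows reaching 100 bases to each side of the summit of the strongest peak are shown for 5 regions on the forward strand of mm10, with bases from the RefSeq GRCm38.p6 sequence of C57BL/6J. The first 3 hold the AP-1 motif and had the highest lowest fold enrichment over the 5 choosing libraries among single-copy regions with that motif, a choice made after the values were seen; capitals mark AP-1 (TGACTCA) and TEAD (GGAATG) matches on either strand. The Esr1 region is shown because it lies in the gene of the receptor that E2 and fulvestrant bind, with capitals on the single AGGTCA match. The Cgnl1 region is the only one of the 1382 with a full ERE within 100 bp of its summit, in capitals.
Gas7 (chr11:67515560-67515760): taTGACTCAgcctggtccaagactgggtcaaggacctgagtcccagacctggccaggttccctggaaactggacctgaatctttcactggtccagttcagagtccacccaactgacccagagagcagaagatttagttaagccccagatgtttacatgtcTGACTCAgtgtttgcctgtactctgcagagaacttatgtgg
Gm29683 (chr7:70267136-70267336): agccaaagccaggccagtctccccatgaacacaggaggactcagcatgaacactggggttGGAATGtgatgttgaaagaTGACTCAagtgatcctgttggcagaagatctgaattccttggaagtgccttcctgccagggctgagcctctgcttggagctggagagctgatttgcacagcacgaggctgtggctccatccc
Ddc (chr11:11844587-11844787): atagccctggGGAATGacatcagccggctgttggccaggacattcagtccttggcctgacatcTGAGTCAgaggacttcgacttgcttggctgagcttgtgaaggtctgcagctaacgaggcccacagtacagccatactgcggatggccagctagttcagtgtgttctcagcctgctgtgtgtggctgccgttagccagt
Esr1 (chr10:4618548-4618748): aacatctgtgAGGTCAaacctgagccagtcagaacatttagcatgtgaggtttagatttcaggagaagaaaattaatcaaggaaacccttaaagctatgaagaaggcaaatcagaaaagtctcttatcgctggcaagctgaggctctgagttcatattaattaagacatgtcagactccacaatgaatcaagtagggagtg
Cgnl1 (chr9:71757491-71757691): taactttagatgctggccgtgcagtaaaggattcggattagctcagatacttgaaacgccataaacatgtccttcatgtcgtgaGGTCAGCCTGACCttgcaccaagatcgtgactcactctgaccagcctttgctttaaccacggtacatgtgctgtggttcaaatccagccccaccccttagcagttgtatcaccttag

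The 1382 regions were mostly intronic. Of these regions, 1276 had their midpoint in an intron, 46 in a UTR, 32 in a coding exon and 28 in an exon of a non-coding gene, and 1184 lay in a protein-coding gene. The intron share was 92.3%, and it was 92% among the 15791 intragenic distal regions called in exactly 1 of the 5 libraries. Their median width was 745.5 bp (5th to 95th percentile, 466 to 1172 bp). The median distance to the nearest transcript start was 12157 bp (quartiles 6185 and 24363 bp), shorter than the 16661 bp of the intergenic distal regions. Along protein-coding genes, 13.4% lay in the part nearest the start, of 5 equal parts, where the rule excludes starts, and 20.8% to 22.5% in each of the later parts of equal length. Density was 1.14 per Mb of gene body over all chromosomes, with 1.95 on chromosome 11 at the top and 0.426 on the X chromosome at the bottom. Mean GC content of the summit window was 52.6% ± 6.99 (SD over regions, n = 1382), against 64.4% in promoter regions.

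The choice rested on few sequenced tags, which sets how firmly each region can be read. From fold enrichment and p value, the number of tags piled up at the strongest peak could be solved for 1108 of 1108 regions with a peak in vehicle 1, where the median was 7 tags (5th to 95th percentile, 4 to 14). The medians were 12 in vehicle 3, 12 in E2 1, 12 in E2 plus fulvestrant 1 and 13 in fulvestrant 1. Vehicle 1 was also the library that most often failed the rule: of the 795 regions called in 4 of the 5 libraries, 565 lacked a call in vehicle 1, 123 in vehicle 3, 46 in E2 plus fulvestrant 1, 41 in E2 1 and 20 in fulvestrant 1. Of the 565, 291 did have a peak in vehicle 1 with a q value over 0.05. Just inside the threshold lay these 795 regions and just outside it 1005 intragenic distal regions called in 3 libraries; 587 were called in all 5. These counts are fixed by the rule and are given as a description.

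The 5 choosing libraries overlapped the intragenic distal regions as the rule requires, and the other 7 rarely did. A deposited peak of vehicle 1 overlapped 80.2% of them (background over all candidate regions, 34.7%), of vehicle 3 94.4% (background 37.9%), of E2 1 98.8% (background 55.3%), of E2 plus fulvestrant 1 98.3% (background 46.7%) and of fulvestrant 1 99.5% (background 54.5%). Nothing is read from these 5 values.

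In the libraries that did not choose the regions, vehicle 2 overlapped 217 of 1382 (15.7%), where 17.5% of all candidate regions were overlapped. E2 2 overlapped 168 (12.2%, background 9.66%) and E2 3 141 (10.2%, background 8%). E2 plus fulvestrant 2 overlapped 113 (8.18%, background 7.17%) and E2 plus fulvestrant 3 149 (10.8%, background 8.25%). The share lay below the background in vehicle 2 and at or above it in both E2 and both E2 plus fulvestrant libraries. The rule left out 180 intragenic distal regions with a peak in all 12 libraries, while the background keeps such candidates. This lowers the share against the background in every library, so the order in vehicle 2 is not read as a result. Fulvestrant 3 overlapped 169 (12.2%, background 9.85%), and fulvestrant 2 stood apart with 438 (31.7%, 95% Wilson interval 29.3% to 34.2%), where the background was 13.9%. The mean over the 7 libraries was 14.4% ± 7.96 (SD, n = 7). The intragenic distal regions were wider (median 745.5 bp) than candidates called in 1 library (250 bp), and a wider region meets more peaks; the part of width in these shares was not tested. Intervals cover counting error only.

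**Figure D1:**
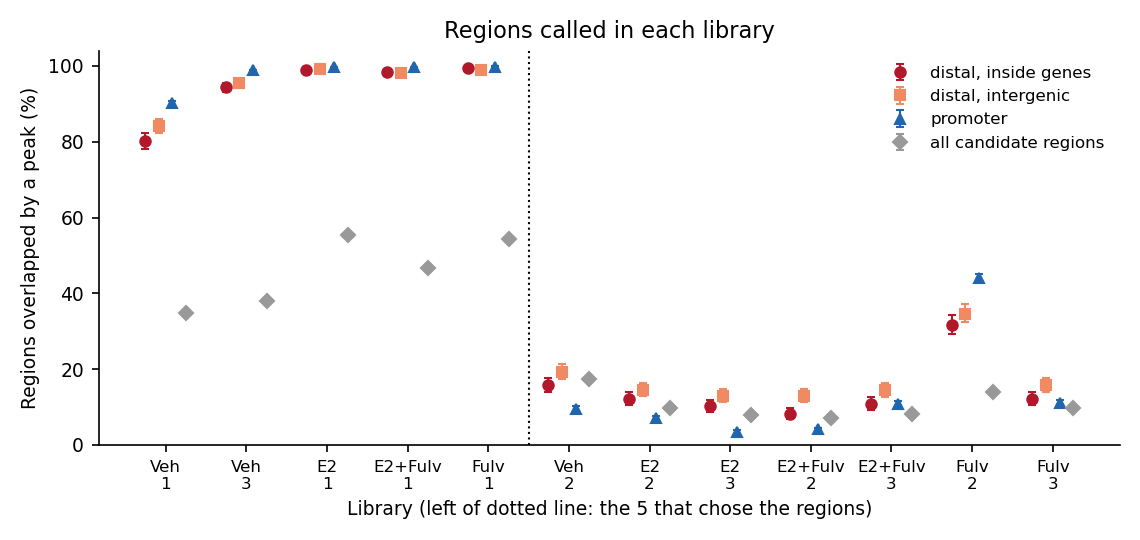
Share of regions overlapped by a deposited peak in each library (y axis, %), for intragenic distal, intergenic distal and promoter regions and for all 63686 candidates; bars are 95% Wilson intervals and the dotted line parts the 5 choosing libraries from the 7 others. Right of the line the intragenic distal regions lie between 8.18% and 15.7% except in fulvestrant 2, at 31.7%.

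Among the regions kept, intragenic distal regions were called less often than their intergenic counterparts in each of the 7 libraries. The rule removed regions with a peak in all 12 libraries from each class, and so used calls of these 7 libraries too. The difference with such regions kept was not tested. The mean share was 14.4% ± 7.96 (SD, n = 7) inside genes and 17.8% ± 7.73 between genes, a difference of -3.39 percentage points (range -4.81 to -2.41; exact two-sided sign-flip permutation test over 7 libraries, p = 0.0156, the smallest the design allows; adjusted over 2 comparisons, p = 0.0313). Within number 2 the mean difference was -3.42 and within number 3 it was -3.34. Among single-copy regions outside repeats it was -1.01 percentage points, again negative in 7 of 7 libraries (exact sign-flip permutation test, adjusted p = 0.0313), with 1316 intergenic and 1252 intragenic regions kept. Against promoter regions the difference was 1.51 percentage points and not larger than its spread (SD 6.64, n = 7; exact sign-flip permutation test, adjusted p = 0.625); in fulvestrant 2 it was -12.4 and in 5 of the 7 libraries it was positive.

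Among candidates without a peak in all 12 libraries, the share called in fulvestrant 2 rose with the number of choosing libraries that called a region. In the other 6 libraries it rose to 2 or 3 and then fell. Over intragenic distal candidates called in 1, 2, 3, 4 and 5 of the choosing libraries and not in all 12, fulvestrant 2 had a peak in 5.22%, 14.2%, 20.3%, 25.4% and 40.2%. E2 2 had one in 6.48%, 15.6%, 18.1%, 15.1% and 8.18%. In vehicle 2 the shares were 15.7%, 29.6%, 25.1%, 19.7% and 10.2%. The rule itself bears on the fall, since it removes regions called in all 12 libraries. At 4 or 5 calls, 180 regions were removed in this way, each with a peak in all of these libraries. The fall is therefore not read as a result, and the steps with such regions kept were not tested. Without fulvestrant 2, the mean share over 6 libraries was 14.3% at 4 calls and 7.86% at 5.

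**Figure D2:**
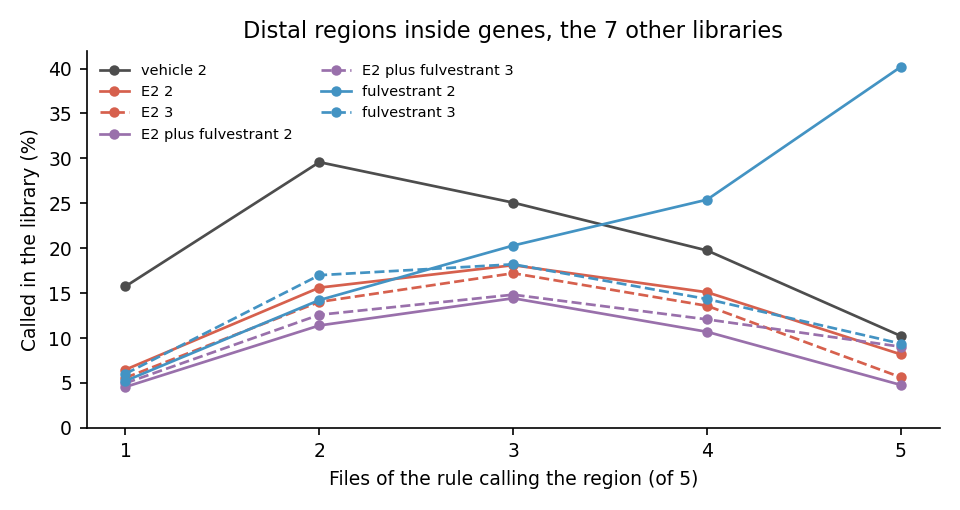
Share of intragenic distal candidates called in each of the 7 libraries that did not choose them (y axis, %), by the number of choosing libraries that call them (x axis). Fulvestrant 2 climbs from 5.22% to 40.2%, while the other lines peak at 2 or 3 and fall to between 4.77% and 10.2% at 5. Regions with a peak in all 12 libraries are left out, which lowers these shares, so the fall is not read as a result.

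The regions split by how many of the 7 other libraries called them, and sequence content split with them. Of the 1382, 741 were called in 0 of the 7, 387 in 1, 98 in 2, 22 in 3, 27 in 4, 28 in 5, 55 in 6 and 24 in 7. Among the 387 called once, the library was fulvestrant 2 in 252. Repeat-masked sequence covered over 50% of the summit window in 27 of the 1226 regions called in 0 to 2 libraries (2.2%) and in 55 of the 156 called in 3 to 7 (35.3%). The 3 adjoining 32-base words at the summit each occurred more than once in the genome in 12 of the 1226 (0.979%) and 72 of the 156 (46.2%). AP-1 motifs were held by 13.8% of the regions called in 0 libraries, 19.6% of those called in 1 and 24.5% of those called in 2, but by 5.77% of the 156. TEAD motifs were held by 18.1% of the 1226 and 7.05% of the 156.

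Regions in repeated sequence recurred more often than single-copy regions. The 130 regions with a multi-copy summit or over 50% repeat were called in 59.7% ± 9.06 (SD, n = 7) of cases across the other libraries, and the 1252 single-copy regions in 9.72% ± 8.75. The difference was 49.9 percentage points, positive in 7 of 7 libraries (exact sign-flip permutation test, p = 0.0156, the smallest possible; this comparison was added after seeing the data). Among the 1252, fulvestrant 2 had peaks in 29.2%, vehicle 2 in 9.66%, and the other 5 libraries in 3.83% to 6.87%. Over all single-copy candidates outside repeats, those shares were 12.2%, 11% and 3.72% to 5.61%. Among the 130, the share was 73.8% in vehicle 2 and 48.5% to 66.2% in the other libraries. Over all candidates with a multi-copy summit or over 50% repeat, it was 36.3% in vehicle 2 and 16.7% to 22.3% in the others. Repeated sequence was thus called more often among candidates at large too. Reads from sequence present in several copies cannot be placed with certainty, so the position of the 84 peaks with a multi-copy summit is uncertain.

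**Figure D3:**
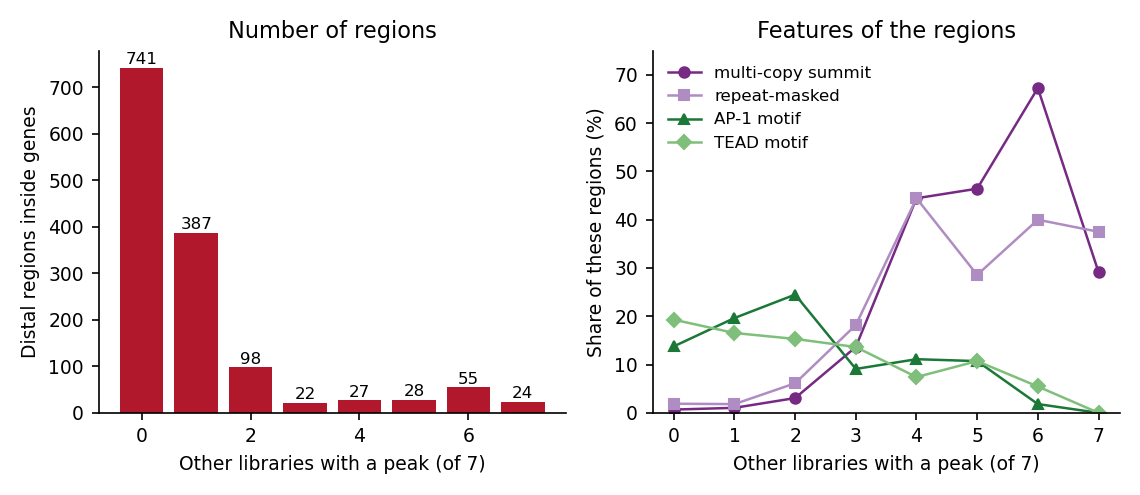
Left, number of intragenic distal regions (y axis) by how many of the 7 other libraries have a peak there (x axis); right, share of those regions (%) with a multi-copy summit, over 50% repeat-masked bases, an AP-1 motif or a TEAD motif. Multi-copy summits rise from 0.675% at 0 libraries to 67.3% at 6 and stand at 29.2% at 7. AP-1 rises from 13.8% at 0 libraries to 24.5% at 2 and stands at 0% at 7.

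The most recurrent regions included interstitial telomere repeats. The region in an intron of Frmd4a, which codes for a scaffold protein of cell polarity, had a fold enrichment over background of 8.02 in vehicle 2, 11.1 in E2 2, 11.5 in E2 3, 10.2 in E2 plus fulvestrant 2, 9.52 in E2 plus fulvestrant 3, 7.87 in fulvestrant 2 and 6.8 in fulvestrant 3. In the choosing libraries it was 5.14 in vehicle 3, 6.03 in E2 1, 8.41 in E2 plus fulvestrant 1 and 6.31 in fulvestrant 1, with no peak in vehicle 1. All 7 values of the other libraries exceeded 3 of the 4 values of the choosing libraries, the reverse of the usual order.

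The Efna5 region, in the gene of an ephrin ligand, ranged from 5.44 to 11.7 in the 7 libraries and from 4.75 to 7.99 in the 4 choosing libraries with a peak. At least 2 copies of the telomere repeat CCCTAA in tandem lay within 100 bp of the summit in 5 of the 1382 regions (0.362%), in Frmd4a, Efna5, Ppp2r2b, Capn8 and Wdr76, against 0.593% of intergenic distal regions and 0.232% of all candidate regions. All 5 belonged to the 24 regions called in 7 of 7 libraries, and 0 of the 1226 regions called in 0 to 2 libraries held the repeat. Of the 10 regions with a q value of at most 0.05 in most of the 7 libraries, these made up 5; the other five lay in A530065N20Rik, Fbxl20, Gm29051, 2410003L11Rik and Ptprn2, and none of the 10 held an AP-1 or TEAD motif.

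AP-1 motifs were more frequent in these regions than in distal candidates at large. TGACTCA lay within 100 bp of the summit in 211 of the 1382 regions (15.3%, Wilson interval 13.5% to 17.3%), against 6.39% of all 42123 distal candidates, 15.4% of intergenic distal and 3.74% of promoter regions. The count of matches was highest at the summit, with 1.07 per kb in the 50 bp before it and 0.145 per kb between 450 and 500 bp before it. In regions called in 1 library, the same bins held 0.291 and 0.194 per kb. TEAD (GGAATG) was held by 233 regions (16.9%), against 15.4% of intergenic distal regions, 12.4% of distal candidates and 7.39% of promoters, with a lower rise, from 0.564 per kb in the outermost bin before the summit to 1.1 in the 50 bp after it. Both motifs were present in 30 regions (2.17%), against 0.773% of intragenic distal regions called once. These shares describe regions chosen on the same libraries.

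**Figure D4:**
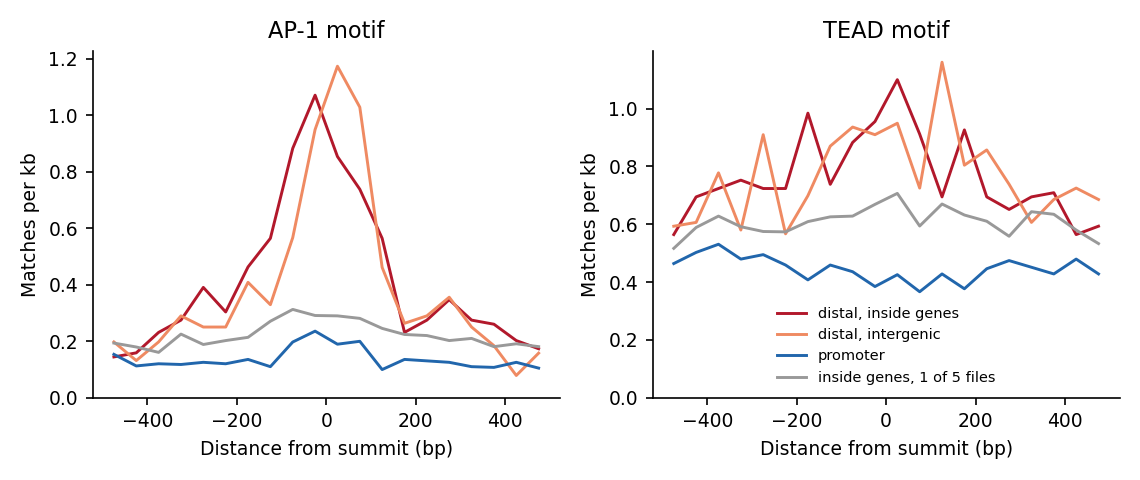
Matches per kb (y axis) of the AP-1 and TEAD motifs in 50-bp bins by distance from the summit (x axis, bp), for intragenic distal, intergenic distal and promoter regions and for intragenic distal candidates called in 1 of the 5 libraries. The AP-1 curve of the intragenic distal regions peaks at 1.07 per kb, where that of regions called once stands at 0.291.

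Other motifs were searched on both strands with the same window. The E-box CAGCTG, bound by basic helix-loop-helix factors, was in 330 regions (23.9%; 21.5% of intergenic distal regions, 13.3% of distal candidates, 10.8% of promoters), the NFI core TTGGCA in 263 (19%; 15.7%, 11.9% and 6.91%) and the RUNX motif TGTGGTT in 88 (6.37%; 4.88% of intergenic distal regions, 4.19% of distal candidates). The GC-rich KLF and SP box GGGCGGG was in 87 (6.3%; 7.98% of intergenic distal regions, 3.05% of distal candidates) and was a promoter motif at 44.6% there. PLAG1, searched by name as a degenerate site that overlaps GC-rich boxes, was in 116 (8.39%; 8.83% of intergenic distal regions, 5.75% of distal candidates, 23.1% of promoters). MEIS (TGACAGNT) was in 50, CTCF in 19, the serum response CArG box in 11, CRE (TGACGTCA) in 10, ETS (CCGGAAGT) in 5, the NFI palindrome in 2 and C/EBP (TTGCGCAA) in 0 of 1382. The last count allows a share of up to 0.277% (upper Wilson bound) for that exact word only. CRE, ETS and C/EBP were searched as these exact words, so other forms of their sites were not counted. None of the 16 motifs was present in 414 regions.

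Estrogen response elements without a mismatch were rare, and elements with a mismatch were not searched. The single arm AGGTCA, which also occurs inside a full ERE, lay in 192 regions (13.9%), in 14% of intergenic distal regions and in 12.9% of distal candidates. A full ERE (GGTCA, any 3 bases, TGACC) lay within 100 bp of the summit in 1 region (0.0724%, Wilson interval 0.0128% to 0.409%), against 3 of the 1517 intergenic distal regions (0.198%) and 25 of the 42123 distal candidates (0.0594%). Within 250 bp of the summit the shares were 0.289%, 0.198% and 0.095%. That region (chr9:71757096-71757777) lies in an intron of Cgnl1, a component of cell junctions, and also holds AP-1 and RUNX motifs. Its fold enrichment was 4.87 in vehicle 3, 4.81 in E2 1, 5.45 in E2 plus fulvestrant 1 and 4.07 in fulvestrant 1, and 0 of the other 8 libraries had a peak. The 4 values lay between 4.07 and 5.45, from 1 library of each group.

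Among the regions kept, those with 4 of the 9 motifs held by at least 50 regions were called less often in the 7 other libraries than regions without. Regions with a peak in all 12 libraries had been removed, a step that used calls of these 7 libraries. The motif differences with such regions kept were not tested. For TEAD the difference was -6.72 percentage points (SD 2.17, n = 7), for the NFI core -9.02, for the E-box -5.92 and for PLAG1 -6.73, each negative in 7 of 7 libraries (exact sign-flip permutation test, adjusted over 9 motifs, p = 0.0352 for each). Without fulvestrant 2, 7 of the 9 motifs passed, and without any 1 of the other 6 libraries 0 did. With 6 libraries the smallest p of the exact sign-flip test is 0.0313. After adjustment over 9 motifs, 4 motifs at that p cannot pass by themselves, so the 0 shows no dependence on a library. Among the regions called in all 5 choosing libraries 0 of the 9 passed, with differences of -2.08 for TEAD, -4.38 for the NFI core, -2.76 for the E-box and -1.85 for PLAG1. For AP-1 it was -3.99 (SD 4.49; exact permutation test, adjusted p = 0.0879), negative in 6 libraries and 5.66 in fulvestrant 2. Of the 263 regions with the NFI core, 259 were single-copy and outside repeats, as were 223 of the 233 with TEAD. Among single-copy regions outside repeats, the difference shrank to -2.86 for TEAD, -4.47 for NFI, -2.2 for the E-box and -3.55 for PLAG1 (exact sign-flip permutation test, adjusted p = 0.0352 for each) and was 0.214 for AP-1 (adjusted exact p = 1). There, fulvestrant 2 had a peak in more AP-1 regions than others by 9.51 percentage points, and the other 6 libraries in fewer.

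The host genes were spread widely. The regions lay in 1210 genes, 985 of them protein-coding, and 1015 genes held 1 region. Gm20388 held the most, 19, but it is a read-through model of 4434.9 kb on chromosome 8 that spans other genes, and 11 of the 19 lay in no other gene. Kcnma1, the large-conductance calcium-activated potassium channel, held 7 in 725.1 kb. Lrmda, also on chromosome 14, held 6, and Smg6, a nonsense-mediated decay factor, held 6, of which 2 were repeat or multi-copy. Aff3 (a nuclear elongation factor relative), Kcnq1 (a potassium channel), Rad51b (a recombination factor) and the antisense gene Gm21847 held 5 each, 3 of the last in repeats or multi-copy sequence. At 4 each stood 12 genes: Adam19 (a metalloprotease), Itgb5 (an integrin chain), Nxn (a redox regulator of WNT signaling), Sufu (an inhibitor of Hedgehog signaling), Fgfr2 (a fibroblast growth factor receptor), Rora (an orphan nuclear receptor), Gas7, Auts2, Syn3, Wwox, Gm31718 and C130026I21Rik, with 3 of the last in repeats or multi-copy sequence.

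Density was highest in lists of signaling and matrix genes. Over all 21755 protein-coding genes the density was 1.16 per Mb of gene body. It was 6.05 in 21 TEAD and YAP pathway genes (9 regions; 95% Poisson interval 2.77 to 11.5), 5.3 in 25 WNT genes (12 regions), 5.17 in 19 matrix proteases and inhibitors (10), 4.7 in 30 matrix glycoproteins and proteoglycans (12), 4.67 in 25 TGF-beta and Smad genes (10) and 3.57 in 32 actin and adhesion genes (12). Intragenic distal candidates called in 1 library were not concentrated in this way: relative to protein-coding genes their density was 1.02-fold, 1.38-fold, 0.983-fold, 1.37-fold, 1.17-fold and 1.27-fold in these lists, where the reproducible regions stood at 5.23-fold, 4.58-fold, 4.47-fold, 4.06-fold, 4.03-fold and 3.09-fold. The lists were written with results of these data known, and no test was run on them.

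**Figure D5:**
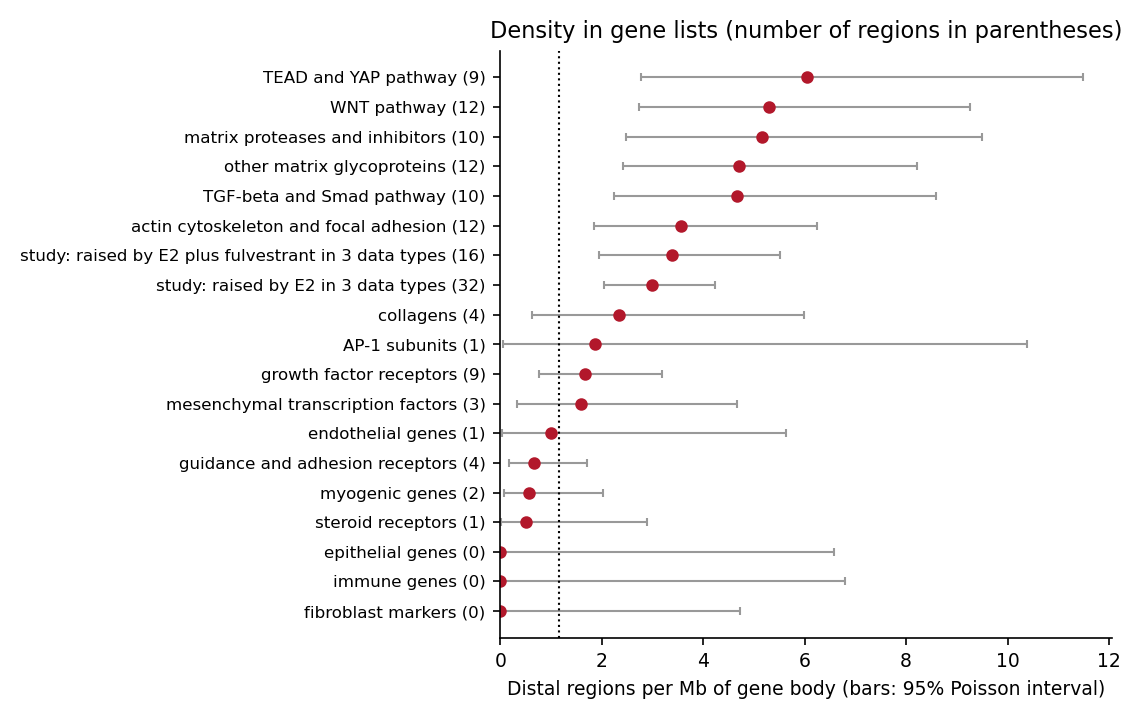
Intragenic distal regions per Mb of gene body (x axis) in each of 19 gene lists, with the number of regions in parentheses; bars are 95% Poisson intervals of the count and the dotted line is the density over all protein-coding genes, 1.16 per Mb. TEAD and YAP pathway genes stand highest at 6.05, and immune, epithelial and fibroblast marker lists hold 0 regions.

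Within these lists, the receptors, transducers and matrix products each held regions. In the TEAD list, Tead1 (a TEAD factor), Vgll4 (its repressor) and Amotl1 (which retains YAP in the cytoplasm) held 2 each and Tead3, Lats2 and Vgll3 held 1 each. In the TGF-beta list, the coreceptor Tgfbr3, the transducer Smad3, the inhibitor Smad7 and the latent binding protein Ltbp2 held 2 each, and Tgfbr2 and Ski 1 each. The WNT receptors Ror1, Ror2 and Lrp5 and the nuclear factor Tcf7l1 held 2 each. Among proteases and inhibitors, Mmp2, Timp3, Adamts2 and Adamts17 held 2 each. Loxl1, which cross-links elastin, held 3 and the matrix proteins Fbln2 and Hspg2 held 2 each, while the collagen list held 4 (Col4a2 with 2, Col4a1 and Col5a3 with 1 each). In the actin list, Tln2 held 2 and Actn1, Actn4, Cald1 and others 1 each.

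Immune, epithelial and fibroblast marker lists held 0 regions, but their gene bodies are short: the 95% Poisson intervals reach 6.79, 6.58 and 4.73 per Mb, above the protein-coding density. The myogenic list held 2, both in Dmd and 1 of them multi-copy, and the endothelial list 1 (Tek), at 1.01 per Mb. The growth factor receptor list held 9 at 1.68 per Mb, 4 of them in the 2960.9-kb model of Fgfr2 and 1 each in Fgfr1, Igf1r, Igf2r and others. Guidance receptors held 4 (Ephb2, Ncam1, Piezo2 and Unc5c), mesenchymal transcription factors 3 (Prrx1, Runx2 and Ebf1) and AP-1 subunits and relatives 1 (Bach2).

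Among steroid receptors, the gene of estrogen receptor alpha held a region. The steroid receptor list held 1 in 1.93 Mb, and it lay in Esr1 (chr10:4617987-4619351), 6648 bp from the nearest start. Its fold enrichment was 7.14 in vehicle 1, 2.78 in vehicle 2, 8.29 in vehicle 3, 7.83 in E2 1, 6.52 in E2 plus fulvestrant 1, 6.86 in fulvestrant 1 and 3.85 in fulvestrant 2, with no peak in the other 5 libraries. The 5 choosing libraries lay between 6.52 and 8.29 whatever the treatment, and both other libraries lay below. Of the genes that the study listed as raised by E2 in 3 data types, 18 of 58 held 32 regions (2.99 per Mb, 2.59-fold the protein-coding density), with 7 in Kcnma1, 5 in Aff3 and 1 or 2 in each of the rest. Of those raised by E2 plus fulvestrant, 8 of 33 matched genes held 16 (3.39 per Mb, 2.93-fold), with 3 each in Arhgap24, Dlgap1 and Ppm1h. These 2 lists were chosen by the study on these samples, in part from its ATAC-seq peaks. They are not independent evidence of a direction or of a higher density.

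E2 and E2 plus fulvestrant did not differ beyond the spread of their libraries. Outside the choosing libraries, 12.2% and 10.2% of the regions were called in E2 2 and E2 3, and 8.18% and 10.8% in E2 plus fulvestrant 2 and 3. The difference of means was 1.7 percentage points (exact permutation test, p = 0.667, where 2 against 2 cannot go below 0.333). It was 3.98 in number 2 and -0.579 in number 3. For fulvestrant 2 and 3 the shares were 31.7% and 12.2% (mean 22% ± 13.8, SD, n = 2), and E2 minus fulvestrant was -10.8 percentage points (exact permutation test, p = 0.333), -19.5 in number 2 and -2.03 in number 3.

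Calls specific to one arm were few. A peak in both E2 and neither E2 plus fulvestrant library of numbers 2 and 3 was present in 17 of 1382 regions (1.23%), where the background over all candidates was 0.848%; the reverse held in 4 (0.289%, background 0.397%). The first 17 included regions in Gm48166, Itgad, Rad51b, Myof and Nav3, and the 4 lay in C130026I21Rik, 1700010N08Rik, Eps8 and Tmem267. In Rad51b (chr12:79599822-79600793) fold enrichment was 5.13 in E2 2 and 4.04 in E2 3, but also 6.78 in E2 plus fulvestrant 1, 6.1 in fulvestrant 1 and 6.2 in vehicle 3. Over all 3 numbers, 0 regions had a peak in every E2 library and in none with E2 plus fulvestrant, and 0 showed the opposite pattern. The rule nearly fixes these counts, since only 24 regions lacked a peak in E2 plus fulvestrant 1 and 16 in E2 1.

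Fold enrichment in the choosing libraries was compared between treatments, and is given as a description, since these libraries set the rule. Over 1342 regions with a peak in both, the median log2 ratio of E2 1 to E2 plus fulvestrant 1 was -0.08 (5th to 95th percentile, -0.73 to 0.54), and 22 differed over 2-fold. The ratio of E2 1 to vehicle 1 had a median of 0.29, but that of vehicle 3 to vehicle 1, within one treatment, had a median of 0.41, with 133 regions over 2-fold. Vehicle 1 also had the lowest background level among the 12, 0.713 tags per 200-bp window, against 0.799 to 1.419 in the others.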

How the data were processed

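ATAC-seq was run on 12 libraries of primary mouse fibroblasts with a commercial kit and paired-end NovaSeq sequencing. Per the study's methods, reads were trimmed (Trimmomatic 0.39), aligned to mm10 with Bowtie2, freed of duplicates (Picard 2.21.4) and passed to MACS2 2.2.71 with a shifted, 200-bp extension. One peak list per library was deposited. The submitters' processing notes give 2.2.71 for Bowtie2 too. The deposited peak lists hold fold enrichment (a ratio of tag pileup to local background), −log10 p-value and −log10 q-value per peak; the lists end at a −log10 p-value of about 2.01, a wider limit than a q value of 0.05. No count table was used, so depth is known only from the pileup each peak implies, which was solved to a whole number for 99.95% to 99.99% of peaks with a −log10 p-value under 15 (tolerance 0.002 on the −log10 p-value).

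Regions were merged, placed on GENCODE M21 (130588 distinct starts) and counted as called in a library when a deposited peak overlapped by at least 1 bp. Summit windows came from GRCm38.p6; the mice were FVB/N, so strain variants were not seen. A region was multi-copy when each of 3 adjoining 32-base words at its summit occurred more than once in the genome, and repeat when over 50% of its window was soft-masked. Comparisons between region classes used exact sign-flip permutation tests of the difference within a library over the 7 libraries that did not choose the regions. Both classes then share a library's depth, but the size of the difference can still vary with depth. Treatments used exact permutation tests, and p-values were adjusted by Benjamini-Hochberg. In 200 simulated regions planted in peak lists, the rule recovered 100%. The planted regions entered the lists as peaks already called, so this value only checks that the steps of the rule ran as written. It cannot show how many open regions the rule missed in lists with few tags per peak. Scripts ran in Python 3.11.15 with numpy 2.4.6, scipy 1.17.1 and matplotlib 3.10.9.

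The regions, gene lists and tests were chosen with earlier results of these data known. Named genes were the 10 with most regions (with all ties), the up to 4 with most regions per list, the 10 regions with a q value of at most 0.05 in most of the 7 libraries, regions with a full ERE, and up to 5 regions of each E2 pattern; the regions in the sequences with AP-1 were chosen after their values were seen. Alternatives covered the call, the overlap, the number of choosing libraries, the distance, the gene set, each library left out, the replicate number and the motif window; removing repeats was added after seeing the data. Differential tests on reads were not run. Some regions and sequences are not reported here.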

Additional observations from a re-analysis of the deposited data

How the results depend on the processing

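The difference between intragenic and intergenic regions stayed negative in 16 of 16 alternatives, none of which kept the regions called in all 12 libraries. It missed the threshold with fewer libraries: leaving out 1 library gave -3.55 to -3.15 percentage points (exact sign-flip permutation test, adjusted p = 0.0625, the smallest that 6 libraries allow here), number 2 alone gave -3.42 and number 3 alone -3.34. With calls of fold enrichment of at least 5 it was -0.779 (exact sign-flip permutation test, adjusted p = 0.0625); the cause was not tested. The difference from promoters, which missed the threshold, turned negative with fold enrichment of at least 5 (-0.168), with regions called in all 5 libraries (-2.8) and among single-copy regions outside repeats (-2.47); the cause was not tested.

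The mean share of regions called in the 7 libraries, 14.4%, fell to 6.38% with peaks of q at most 0.05, 6.02% where a peak had to cover 50% of the region and 2.25% with fold enrichment of at least 5, and it was 24.3% with the 180 regions called in all 12 libraries kept. The number of motifs called less often, 4 of 9, was 7 with q at most 0.05, 8 with fold enrichment of at least 5, 8 with 50% cover, 8 with a 250-bp window and 0 with regions called in all 5 libraries. Leaving out 1 library gave 0 to 7, with 7 without fulvestrant 2 and 0 without any other. With 6 libraries, 4 motifs at the smallest p cannot pass after adjustment over 9, so a 0 there shows no dependence on a library. Each number alone gave 0, since 4 or 3 libraries cannot pass. TEAD, NFI, E-box, PLAG1 and KLF and SP stayed negative in 17 of 17 alternatives, none of which kept the regions called in all 12 libraries. AP-1 turned positive with regions called in all 5 libraries (1.52) and among single-copy regions (0.214), as did the ERE arm (2.89 and 0.175) and RUNX (0.493 among single-copy regions). MEIS, at 0.157 with 50 holders, turned negative in 11 alternatives: -7.15 with all 5 libraries, -2.64 with 250 bp, -1.15 with fold enrichment of at least 5, -2.47 with q at most 0.05, -1.14 in protein-coding genes, -1.52 among single-copy regions, -2.00 in number 2, and -0.719 to -0.123 when single libraries were left out.

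E2 minus E2 plus fulvestrant ranged from 0 to 3 over 13 alternatives. The unit was percentage points, except where each share was divided by that of all candidates, which gives a difference of ratios. With the replicate block the difference was 1.7 percentage points (exact sign-flip p = 1). The numbers were not taken as pairs, since only in number 1 did every pair of libraries correlate above 0.1: the correlations were 0.101 to 0.29 in number 1, 0.0416 to 0.219 in number 2 and -0.215 to 0.147 in number 3. No other call changed with the block. Of 21 gene lists, 13 lay above the protein-coding density, and that count stayed within 1.5 times in each alternative run. In the 7 libraries the median pileup at a called region was 7 to 9 tags, and a region without a peak there was not called, which does not show that it was closed.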

Other observations

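The 180 intragenic distal regions that were called in at least 4 choosing libraries but left out because all 12 libraries had a peak there differed in sequence from those kept. Over 50% of the summit window was repeat-masked in 91 (50.6%), against 5.93% of the 1382, and 89 (49.4%) had a multi-copy summit, against 6.08%. Tandem CCCTAA lay in 27 (15%) and AP-1 motifs in 7 (3.89%). Their median fold enrichment was 5.68 in the choosing libraries and 6.06 in the 7 others. Of the 180, 55 were single-copy and outside repeats.

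The intergenic distal regions showed the same split by recurrence: a multi-copy summit in 1.42% of the 1270 called in 0 to 2 of the 7 libraries and in 47% of the 247 called in 3 to 7. Promoter regions did so at 1.11% and 14.7%.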
